A study of Rattus norvegicus with 60 samples.

Results

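Methylprednisolone (MP), a synthetic glucocorticoid, was compared with its vehicle in the spinal cord of sham-operated rats 8 and 12 h after medication. The 8 arrays of this comparison, of 60 in the series, were 4 from rats with sham surgery and MP (S-MP) and 4 from rats with sham surgery and vehicle (S-EtOH), with 2 rats per group at each time and 1 array per rat. They were chosen by their sample labels, and all 15097 probe sets with exactly 1 gene symbol, of 27342 on the Rat Gene 1.0 ST array, were tested. All rats were female Long Evans rats of 8 or 9 weeks, and all of those compared here had a T9 to T10 laminectomy under Zoletil and Rompun without contusion of the cord. S-MP rats received 30 mg/kg MP dissolved in 70% ethanol into a vein and S-EtOH rats the same volume of 70% ethanol, so both groups carry the surgery, the anaesthesia and the ethanol. A 5-mm segment of whole cord was taken. The groups are therefore a model of MP acting on an operated and ethanol-treated cord rather than on an untouched one, and p-values measure the spread between these few rats.

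Glucocorticoids bind the glucocorticoid receptor, a transcription factor held in the cytoplasm until its ligand arrives. In the nucleus the bound receptor raises genes that carry its response element, such as Fkbp5, Tsc22d3 and Zbtb16, and restrains genes driven by NF-kappaB and AP-1, among them many chemokines and adhesion molecules. In the cord, microglia, astrocytes and endothelial cells are known to make such mediators after tissue damage and to carry the receptor themselves. In a whole segment, fewer cells of a type and less RNA per cell cannot be told apart.

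The deposited log2 values are centred near 0 for each probe set, so a value gives a rat's position relative to other arrays for that probe set and no level. Cord markers such as neurofilaments, myelin genes and Gfap could for that reason not be checked for presence. Array medians lay between -0.01 and 0.02. Correlations over all probe sets were 0.37 to 0.73 among the 4 S-MP arrays, 0.24 to 0.65 among the 4 S-EtOH arrays and -0.28 to 0.45 between an S-MP and an S-EtOH array. The S-MP 12 h replicate 2 array received the lowest weight, 0.39, in a fit that weighs arrays by their fit to the design.

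With time as a covariate, 1233 probe sets (8.17% of those tested) passed an adjusted p of 0.05, of which 898 (5.95%) were higher and 335 (2.22%) lower in S-MP. Differences were small on the whole, with a median log2 difference of 0.36 among the higher and -0.37 among the lower probe sets. Of those with a log2 difference of at least 1 in size, 4 were higher and 13 lower in S-MP. The share of higher calls was 72.8% in the deposited values, 58.0% (626 higher, 454 lower) after quantile normalization and 64.1% (730 higher, 408 lower) with array medians set to 0. The number of calls rested on single arrays. It was 707 without S-EtOH 8 h replicate 1, 89 without S-EtOH 8 h replicate 2, 220 without S-EtOH 12 h replicate 1 and 177 without S-EtOH 12 h replicate 2. It was 139 without S-MP 8 h replicate 1, 621 without S-MP 8 h replicate 2, 227 without S-MP 12 h replicate 1 and 2338 without S-MP 12 h replicate 2. In 1225 of the 1233 called probe sets the S-MP and S-EtOH arrays did not overlap at either time, where 14.4% of all tested probe sets were so separated with S-MP higher and 7.9% with S-MP lower.

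Chemokines, small secreted proteins that draw leukocytes into tissue, held the 3 largest falls. Of the 29 probe sets listed as cytokines, chemokines and mediators, 12 fell in S-MP (41.4%, against 2.22% over all tested) and 0 rose. Their median log2 difference was -0.50 against 0.02 over all tested probe sets. Those that fell were Cxcl10, Cxcl11, Ccl2, Ccl7, Ccl3, Cx3cl1, Il1b, Osm, Nos2, Icam1, Sele and Selp. The mean over the list ran from -0.75 to -0.47 in the S-MP arrays and from -0.17 to 0.34 in the S-EtOH arrays.

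**Figure D1:**
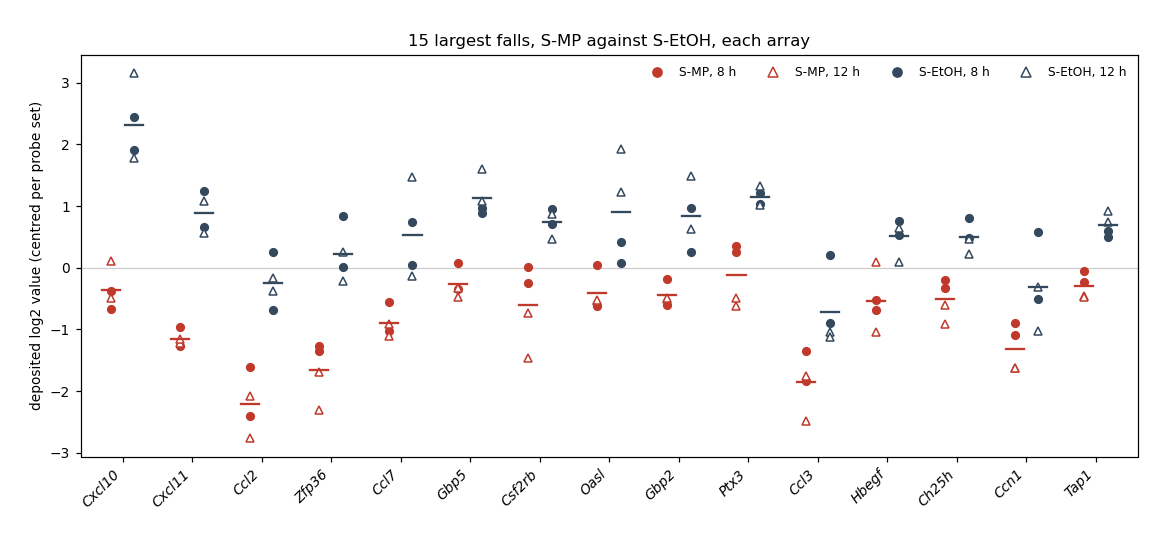
Deposited log2 values of the 15 probe sets with the largest falls, in each S-MP array (red, left) and each S-EtOH array (dark, right), with circles for 8 h, open triangles for 12 h and bars for the mean of 4 arrays. Cxcl10 shows the widest gap, with means of -0.36 in S-MP and 2.32 in S-EtOH, whereas Hbegf and Oasl have arrays of the groups lying close together.

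Cxcl10 and Cxcl11, interferon-inducible ligands of the T cell receptor Cxcr3, showed the first and second largest falls. Cxcl10 (probe set 10771655) read -0.67 and -0.38 at 8 h and -0.49 and 0.11 at 12 h in S-MP, against 2.43 and 1.92 at 8 h and 3.15 and 1.77 at 12 h in S-EtOH. Cxcl11 (probe set 10771649) read -1.27, -0.96, -1.22 and -1.15 in S-MP in the same order of arrays, against 0.67, 1.24, 1.09 and 0.56 in S-EtOH. Every S-MP array lay below every S-EtOH array for both genes. The log2 difference was -2.67 ± 0.28 (SE, adjusted p = 0.0098) for Cxcl10 and -2.04 ± 0.15 (SE, adjusted p = 0.0060) for Cxcl11. Both calls held in all 8 fits that lacked 1 array, with adjusted p of at most 0.040 and 0.038.

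Ccl2, the main chemoattractant for monocytes, read -2.41 and -1.61 at 8 h and -2.76 and -2.08 at 12 h in S-MP, against -0.68 and 0.25 at 8 h and -0.16 and -0.38 at 12 h in S-EtOH. The groups did not overlap, and the difference of -1.97 ± 0.26 (SE, adjusted p = 0.013) held in all 8 fits that lacked 1 array. Its neighbour Ccl7, which also draws monocytes, read -0.55, -1.03, -1.10 and -0.92 in S-MP and 0.75, 0.04, 1.47 and -0.13 in S-EtOH. The S-EtOH duplicates of Ccl7 lay far apart at both times, and its difference of -1.43 ± 0.33 (SE, adjusted p = 0.038) passed in only 2 of the 8 fits and missed the threshold with array weights (adjusted p = 0.052). Ccl3, an inflammatory chemokine of macrophages, differed by -1.15 ± 0.25 (SE, adjusted p = 0.034), passed in 2 of the 8 fits and had an adjusted p of 0.27 after quantile normalization.

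Adhesion molecules that hold leukocytes to the vessel wall fell by less. Icam1, the ligand of the leukocyte integrins, differed by -0.73 ± 0.13 (SE, adjusted p = 0.021), and the endothelial selectins Sele and Selp by -0.50 ± 0.09 and -0.51 ± 0.12 (SE, adjusted p = 0.022 and 0.039). Cx3cl1, the membrane-bound chemokine that neurons present to microglia, differed by -0.51 ± 0.10 (SE, adjusted p = 0.023). Selp passed in 1 of the 8 fits that lacked 1 array and Icam1, Sele and Cx3cl1 in 3 each. Of these 4, Icam1 and Selp no longer passed after quantile normalization, with adjusted p of 0.060 for Icam1. Nos2, the inducible nitric oxide synthase, read -0.36, -0.37, -0.53 and -0.44 in S-MP and 0.08, 0.30, -0.03 and -0.01 in S-EtOH. Its fall of 0.51 log2 units was small and tight, with all 4 S-MP arrays below all S-EtOH arrays, and it passed in all 8 fits that lacked 1 array. Il1b, the prototype inflammatory interleukin, differed by -0.46 ± 0.09 (SE, adjusted p = 0.025) passed in 2 of the 8 fits and had an adjusted p of 0.15 after quantile normalization.

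Promoters of the 15 largest falls were read for the 12 genes with an entry in the RefSeq promoter set used (build GRCr8, 250 bases before to 50 bases after the start), and those of the 15 largest rises for 10. The set held no entry for Ccl2, Csf2rb and Ccl3 among the falls and for Slco1c1, Prex2, P2ry12, Elovl6 and Acss3 among the rises. The 5 sequences shown hold a match on either strand to the form of NF-kappaB site searched, the letters GGGA and TTCC with 2 free bases between them. Capitals mark that motif and, on either strand, GAAA and GAAA with 2 free bases between them, the core of an interferon-stimulated response element, and each run is printed on the strand of its gene.
Cxcl10, chr14:15988816-15989115, + strand: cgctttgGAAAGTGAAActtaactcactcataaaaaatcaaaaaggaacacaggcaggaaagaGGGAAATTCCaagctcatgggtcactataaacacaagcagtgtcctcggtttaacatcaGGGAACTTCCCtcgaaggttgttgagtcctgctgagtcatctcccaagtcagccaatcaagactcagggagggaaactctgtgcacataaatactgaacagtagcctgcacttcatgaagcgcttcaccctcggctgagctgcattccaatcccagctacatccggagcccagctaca
Cxcl11, chr14:15973478-15973777, + strand: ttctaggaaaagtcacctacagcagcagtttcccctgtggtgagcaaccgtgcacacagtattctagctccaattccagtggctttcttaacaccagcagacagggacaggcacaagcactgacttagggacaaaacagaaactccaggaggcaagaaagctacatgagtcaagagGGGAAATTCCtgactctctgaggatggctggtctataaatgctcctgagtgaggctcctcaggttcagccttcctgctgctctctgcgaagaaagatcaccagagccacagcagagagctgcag
Ccl7, chr10:67513845-67514144, + strand: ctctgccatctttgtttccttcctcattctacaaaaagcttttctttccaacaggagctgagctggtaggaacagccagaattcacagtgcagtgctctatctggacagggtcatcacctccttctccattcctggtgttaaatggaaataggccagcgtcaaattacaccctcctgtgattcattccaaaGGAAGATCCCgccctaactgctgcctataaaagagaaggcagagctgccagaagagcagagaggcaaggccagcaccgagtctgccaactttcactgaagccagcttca
Gbp5, chr2:233910749-233911048, + strand: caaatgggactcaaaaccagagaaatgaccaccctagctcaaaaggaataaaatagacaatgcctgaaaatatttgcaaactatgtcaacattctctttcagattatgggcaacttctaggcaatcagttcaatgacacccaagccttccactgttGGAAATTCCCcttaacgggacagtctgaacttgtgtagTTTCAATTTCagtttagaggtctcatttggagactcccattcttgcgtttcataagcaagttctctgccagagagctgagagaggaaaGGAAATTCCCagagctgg
Tap1, chr20:4668494-4668793, - strand: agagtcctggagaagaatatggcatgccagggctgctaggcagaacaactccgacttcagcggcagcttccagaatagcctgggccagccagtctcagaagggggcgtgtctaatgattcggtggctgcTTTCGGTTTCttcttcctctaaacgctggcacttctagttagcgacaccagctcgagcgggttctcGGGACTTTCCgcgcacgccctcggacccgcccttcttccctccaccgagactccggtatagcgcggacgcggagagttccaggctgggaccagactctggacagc

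In the Cxcl10 run the NF-kappaB letters stand at bases 64 to 73, and at 123 to 132 overlapping with a reverse match at 124 to 133, with the interferon element at bases 8 to 17. The Gbp5 run has NF-kappaB matches at 157 to 166 and 283 to 292 beside an interferon element at 195 to 204, and the Tap1 run has them at 196 to 205 and 130 to 139. Cxcl11 and Ccl7 have a single NF-kappaB match each, at 177 to 186 and 192 to 201. The motif was thus in 5 of 12 promoters of the largest falls and in 0 of 10 of the largest rises, against 1.3% of all 33469 promoters. Over all genes lower in S-MP it was in 15 of 267 promoters (5.62%), over those higher in 10 of 738 (1.36%) and over all tested genes in 1.39%. The interferon element was in 4 of the 12 (Cxcl10, Gbp5, Gbp2 and Tap1), against 3.92% of all promoters, and in 4.87% of promoters of lower genes and 2.85% of those of higher genes. The AP-1 letters TGANTCA were in 4 of the 12 (Cxcl10, Cxcl11, Ccl7 and Gbp2) and in Slitrk6 among the rises, against 7.33% of all promoters. The full glucocorticoid response element, AGAACA and TGTTCT with 3 free bases between them and searched like the others on both strands, was in 0 of these 22 windows and in 5 of all 33469 (0.0149%). A match is a run of letters and not a measured site.

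Genes induced by interferons, which arm cells against viruses and present antigen, fell in part. Of 26 probe sets in this list 5 fell in S-MP (19.2%, against 2.22% over all tested) and 0 rose. The 5 were Gbp5, Oasl, Gbp2, Tap1 and Ifih1, and the list median was -0.52. Gbp5, a guanylate-binding protein of inflammasome signalling, read -0.34 and 0.07 at 8 h and -0.33 and -0.48 at 12 h in S-MP, against 0.89 and 0.97 at 8 h and 1.60 and 1.08 at 12 h in S-EtOH. Tap1, the peptide pump that loads MHC class I molecules, read -0.23, -0.06, -0.45 and -0.47 in S-MP and 0.59, 0.50, 0.92 and 0.74 in S-EtOH. The differences of Gbp5 and Tap1, -1.41 ± 0.17 and -0.99 ± 0.12 (SE, adjusted p = 0.012 for both), passed in all 8 fits that lacked 1 array.

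Other interferon genes were split between the times. Rsad2, an antiviral enzyme, read -0.81 and 1.03 at 8 h and 0.08 and -0.07 at 12 h in S-MP, against 1.65 and -0.04 at 8 h and 3.55 and 2.50 at 12 h in S-EtOH. At 8 h its groups overlapped and at 12 h they lay more than 2 log2 units apart, and over both times the difference of -1.86 ± 0.62 (SE, adjusted p = 0.097) did not pass. Mx1, an antiviral GTPase, likewise read 1.66 in S-MP 8 h replicate 2 alone, against -0.27 to 0.37 in the other S-MP arrays, with 0.86 and -0.12 at 8 h and 2.52 and 1.95 at 12 h in S-EtOH. The list median was 0.02 at 8 h and -1.12 at 12 h, and 25 of the 26 probe sets were below 0 at 12 h and 13 at 8 h. S-MP 8 h replicate 2 was the highest S-MP array of the list at a mean of 0.55, against -0.33 for its duplicate, and the S-EtOH arrays ran from -0.04 to 1.23. Oasl passed in only 1 of the 8 fits lacking 1 array, Ifih1 in 2 and Gbp2 in 6.

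Immediate early factors, which cells transcribe within minutes of a stimulus, fell in part. Of 23 probe sets 7 fell (Atf3, Junb, Myc, Fosl1, Klf6, Jun and Arc), or 30.4% against 2.22% over all tested. In this list 0 rose and 22 had a difference below 0, with a median of -0.47. Zfp36, which binds AU-rich messages of inflammatory genes and speeds their decay and is itself known as a glucocorticoid-inducible gene, had the largest fall outside the chemokines. It read -1.35 and -1.27 at 8 h and -2.30 and -1.70 at 12 h in S-MP, against 0.01 and 0.83 at 8 h and 0.25 and -0.22 at 12 h in S-EtOH. All S-MP arrays lay more than 1 log2 unit below the lowest S-EtOH array, and the difference of -1.87 ± 0.21 (SE, adjusted p = 0.010) passed in all 8 fits that lacked 1 array.

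Atf3, a stress-induced transcription factor, read -1.25, -0.99, -1.23 and -1.47 in S-MP and -0.12, -0.03, -0.43 and -0.88 in S-EtOH. S-EtOH 12 h replicate 2 lay nearest to the S-MP arrays, and the difference of -0.87 ± 0.13 (SE, adjusted p = 0.015) passed in 7 of the 8 fits but had an adjusted p of 0.13 after quantile normalization. Junb, Myc and Jun, the AP-1 and growth factors, differed by -0.67, -0.61 and -0.51, and each passed in 2 or 3 of the 8 fits. Junb, Fosl1 and Arc lost their call after quantile normalization. Among other growth and stress signals, the EGF receptor ligand Hbegf differed by -1.04 ± 0.24 (SE, adjusted p = 0.037, 1 of the 8 fits) and the matricellular protein Ccn1 by -1.0 ± 0.23 (SE, adjusted p = 0.039, 2 of the 8 fits). Ccn1 had an adjusted p of 0.18 after quantile normalization. Ch25h, which makes the oxysterol 25-hydroxycholesterol, was tighter, at -0.19, -0.33, -0.91 and -0.61 in S-MP and 0.49, 0.80, 0.46 and 0.23 in S-EtOH. Its fall of 1.0 log2 units passed in all 8 fits.

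Genes known to rise in reactive astrocytes fell in part in S-MP. All 20 probe sets of that list had a difference below 0, with a median of -0.51. Of them 7 fell (35%, against 2.22% over all tested) and 0 rose. The 7 were Cxcl10, Ptx3, Lcn2, Socs3, Hspb1, Cd44 and Steap4, of which Cxcl10 stands in the chemokine list too. Ptx3, a soluble pattern recognition protein, read 0.26 and 0.35 at 8 h and -0.49 and -0.62 at 12 h in S-MP, against 1.21 and 1.03 at 8 h and 1.33 and 1.02 at 12 h in S-EtOH. Its difference of -1.27 ± 0.18 (SE, adjusted p = 0.015) passed in all 8 fits. Lcn2, an iron-trapping lipocalin of reactive astrocytes and neutrophils, read 0.26, 0.47, -0.80 and -0.36 in S-MP and 1.29, 1.74, 0.44 and 0.06 in S-EtOH. Its S-MP arrays at 8 h overlapped the S-EtOH arrays at 12 h, while within each time the groups were apart. The fall of 0.99 passed in 5 of the 8 fits. Timp1, an inhibitor of matrix proteases, read -1.20 and 0.16 in the S-EtOH duplicates at 8 h and did not pass (-0.68 ± 0.48 SE, adjusted p = 0.40). Over the list, the median was -0.22 at 8 h and -0.96 at 12 h. Neither Gfap nor any other resting astrocyte marker passed the threshold as lower, though 3 of 13 such probe sets had a difference below 0 (lowest -0.25). Of the 13, 2 rose (15.4%, against 5.95% over all tested). These were the gap junction gene Gjb6 (0.54, 5 of the 8 fits) and angiotensinogen, Agt (0.47, 2 of the 8 fits).

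Markers of resting microglia, the resident macrophages of the cord, rose in part in S-MP. Of 17 probe sets, 3 rose (P2ry12, P2ry13 and Tmem119) and 0 fell, with a median of 0.30. The share higher was 17.6%, against 5.95% over all tested. P2ry12, the ADP receptor by which resting microglia sense injury, read 0.10 and 0.14 at 8 h and -0.03 and 0.03 at 12 h in S-MP, against -0.87 and -0.68 at 8 h and -0.76 and -0.62 at 12 h in S-EtOH. P2ry13, a related ADP receptor, read 0.31, 0.42, 0.35 and 0.13 in S-MP and -0.31, -0.23, -0.63 and -0.42 in S-EtOH. The S-MP arrays lay above all S-EtOH arrays by a clear margin for both receptors. Differences were 0.79 ± 0.07 (SE, adjusted p = 0.0097) for P2ry12, 0.70 ± 0.08 (SE, adjusted p = 0.011) for P2ry13 and 0.48 ± 0.05 (SE, adjusted p = 0.012) for Tmem119, a membrane protein largely restricted to microglia. All 3 passed in all 8 fits that lacked 1 array.

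Not all myeloid genes followed these receptors. Csf1r, the receptor on which microglia depend for survival, was at 0.30 ± 0.17 (SE, adjusted p = 0.30), with 8 h and 12 h differences of 0.76 and -0.16. Itgam, an integrin chain of microglia and blood myeloid cells, was at -0.48 ± 0.24 (SE, adjusted p = 0.24), with 0.15 at 8 h and -1.11 at 12 h. The median of the microglia list was 0.57 at 8 h and -0.0028 at 12 h. Olfml3, a secreted protein that microglia also make, read 0.61, 0.56, 0.39 and 0.09 in S-MP and -1.12, -0.45, -0.62 and -0.40 in S-EtOH. Its difference of 1.06 ± 0.18 (SE, adjusted p = 0.019) passed in 4 of the 8 fits. Csf2rb, the shared signalling chain of the GM-CSF, IL-3 and IL-5 receptors in myeloid cells, ran the other way at -1.35 ± 0.22 (SE, adjusted p = 0.017, 6 of the 8 fits).

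**Figure D2:**
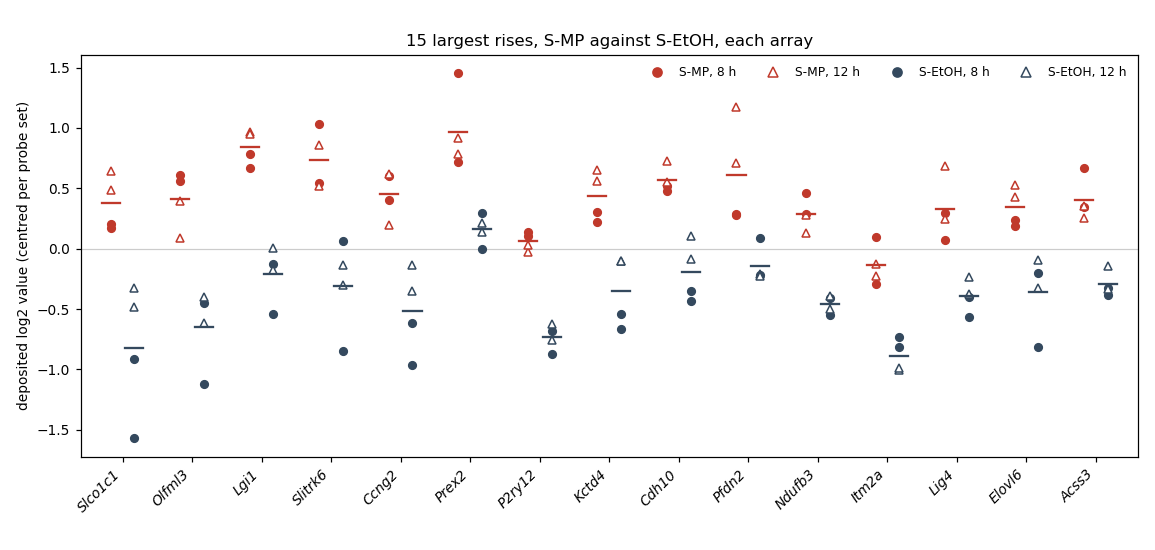
Deposited log2 values of the 15 probe sets with the largest rises, in each S-MP array (red, left) and each S-EtOH array (dark, right), with circles for 8 h, open triangles for 12 h and bars for the mean of 4 arrays. The S-MP arrays of P2ry12 run from -0.03 to 0.14 and its S-EtOH arrays from -0.87 to -0.62, while for Slco1c1 they run from 0.17 to 0.64 in S-MP and from -1.57 to -0.32 in S-EtOH.

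The largest rise was in a transporter of the blood-spinal cord barrier. Slco1c1, which carries thyroxine across brain endothelium, read 0.21 and 0.17 at 8 h and 0.48 and 0.64 at 12 h in S-MP, against -0.92 and -1.57 at 8 h and -0.48 and -0.32 at 12 h in S-EtOH. The S-EtOH arrays at 8 h were the lowest and their duplicates lay apart, but no array of the groups overlapped. Its difference of 1.20 ± 0.15 (SE, adjusted p = 0.012) passed in all 8 fits. Itm2a, a membrane protein of brain endothelium, read -0.29, 0.09, -0.23 and -0.13 in S-MP and -0.82, -0.73, -1.01 and -0.99 in S-EtOH, a rise of 0.75 that passed in all 8 fits. The glucose transporter Slc2a1, also an endothelial marker, fell by 0.41 (adjusted p = 0.047, 1 of the 8 fits). Itm2a and Slc2a1 were the 2 calls in the list of 17 endothelial probe sets (11.8%, against 8.17% over all tested). That list did not hold Slco1c1 and had a median of 0.31. The basement membrane collagen Col4a1 fell by 0.47 (7 of the 8 fits) as the only call in 18 meningeal fibroblast and collagen probe sets, of which 11 had a difference above 0 (median 0.01). The median of that list was 0.48 at 8 h and -0.37 at 12 h, with 3 of the 18 below 0 at 8 h and 17 at 12 h. The intermediate filament of pericytes and muscle, Des, fell by 0.52 as the only call in 15 pericyte and smooth muscle probe sets, of which 9 had a difference above 0 (median 0.04). Des read -0.27, -0.34, -0.35 and -0.29 in S-MP and 0.25, 0.20, 0.30 and 0.08 in S-EtOH.

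Lgi1, Kctd4, Cdh10 and Slitrk6 were among the 15 largest rises. Lgi1, a secreted protein that organises AMPA receptors at synapses, read 0.78 and 0.67 at 8 h and 0.96 and 0.95 at 12 h in S-MP, against -0.13 and -0.54 at 8 h and 0.00 and -0.18 at 12 h in S-EtOH. Kctd4, a potassium channel tetramerisation domain protein, read 0.22, 0.30, 0.56 and 0.65 in S-MP and -0.54, -0.66, -0.11 and -0.11 in S-EtOH. Cdh10, a cadherin of neurons, read 0.48, 0.52, 0.73 and 0.56 in S-MP and -0.35, -0.43, 0.11 and -0.08 in S-EtOH. In each of the 3 genes every S-MP array was above every S-EtOH array, by 1.05 ± 0.09, 0.79 ± 0.06 and 0.76 ± 0.08 log2 units (SE, adjusted p = 0.0097, 0.0060 and 0.0098), and the calls held in all 8 fits. Slitrk6, a synapse-organising membrane protein, rose by 1.04 ± 0.20 (SE, adjusted p = 0.026) but passed in 3 of the 8 fits.

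Receptor and channel lists gave rises and no falls, where 5.95% of all tested probe sets were called higher and 2.22% lower. In lists of this size, no falls is near that share of lower calls. Among glutamate receptors 5 of 23 probe sets rose (Grik2, Gria1, Grm8, Gria2 and Gria4) and 0 fell, with a median of 0.21. In glycine and GABA transmission 4 of 21 rose (Gabrb1, Gabra5, Glra3 and Glra2) and 0 fell, with a median of 0.22. Of voltage-gated sodium and potassium channels 4 of 24 rose (Scn2a, Kcnd2, Kcnc2 and Scn4b) and 0 fell, with a median of 0.22. Gabrb1, a beta subunit of the GABA-A receptor, was the firmest, at 0.39, 0.22, 0.56 and 0.30 in S-MP against -0.24, -0.09, -0.27 and -0.27 in S-EtOH. Its groups did not overlap, and its rise of 0.58 ± 0.09 (SE, adjusted p = 0.015) passed in 7 of the 8 fits. The other calls in these 3 lists passed in at most 4 of the 8 fits that lacked 1 array. Gria1, Gria2, Gria4, Grik2, Glra3 and Scn4b each passed in 1 of the 8 fits, Glra2, Kcnd2 and Kcnc2 in 2, Gabra5 and Scn2a in 3 and Grm8 in 4. Gria1, Gria2, Gria4, Glra3, Kcnc2 and Scn4b lost their call after quantile normalization. In synaptic vesicle release Sv2b (0.53), Pclo (0.52) and Rab3c (0.39) rose, of 28 probe sets (10.7% called, near the 8.17% over all tested). The median of that list was 0.04, and -0.02 after quantile normalization. Of 12 motor neuron probe sets, 1 rose, the muscarinic receptor Chrm2 (0.55, 6 of the 8 fits), and 1 fell, the metalloprotease Mmp9 (-0.33, 3 of the 8 fits), with a median of 0.06. Structural neuron markers held 0 calls in 16 probe sets, with a median of 0.17 and list means of 0.20 to 0.39 in S-MP and 0.07 to 0.29 in S-EtOH, and their part in the receptor values was not tested.

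In the respiratory chain and ATP synthase, 9 of 94 probe sets rose and 1 fell (10.6% called, near the 8.17% over all tested probe sets), with a median of 0.11. The rises were Ndufb3, Ndufb10, Ndufa8, Ndufv3, Ndufa9, Ndufa12, Ndufb7 and Ndufv1 of complex I and Sdhaf2, an assembly factor of succinate dehydrogenase. The share of complex I among the 94 probe sets was not counted, so these names do not set complex I apart. Ndufb10 passed in 5 of the 8 fits that lacked 1 array, Sdhaf2 in 4 and Ndufa8 in 1. Ndufb3 read 0.29 and 0.46 at 8 h and 0.13 and 0.28 at 12 h in S-MP, against -0.55 and -0.41 at 8 h and -0.50 and -0.39 at 12 h in S-EtOH. Atp5mc2, a c-ring subunit of ATP synthase, read -0.25, 0.01, -0.24 and 0.06 in S-MP and 0.44, 0.54, 0.54 and 0.52 in S-EtOH. These 2 subunits moved in opposite directions without overlap, by 0.75 ± 0.08 (SE, adjusted p = 0.0098, all 8 fits) and -0.62 ± 0.09 (SE, adjusted p = 0.015, 7 of the 8 fits). In glycolysis, lactate and glycogen 5 of 51 rose, among them the lactate and pyruvate carrier Slc16a7 (0.39), the glycolytic enzyme Tpi1 (0.43) and the phosphofructokinases Pfkm (0.25) and Pfkp (0.31), while Pfkfb3, which makes the activator of phosphofructokinase, fell by 0.43 with Slc2a1. The glycolysis list had 13.7% called, against 8.17% over all tested, and its median was -0.05. Pfkm, Pfkp and Gys1, the muscle-type glycogen synthase, lost their call after quantile normalization. Slc16a7 passed in 5 of the 8 fits that lacked 1 array, Tpi1 in 2 and Pfkm, Pfkp, Gys1, Pfkfb3 and Slc2a1 in 1 each.

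Lipid and growth genes gave 3 rises and 3 falls in 30 lipid-handling probe sets (20%). There were 4 rises and 1 fall in 29 of insulin, FOXO and growth signalling (17.2%), against 8.17% called over all tested. The cholesterol exporters Abcg1 (0.46, 4 of the 8 fits) and Abca1 (0.44, 2 of the 8 fits) and the peroxisomal protein Pex11a (0.44, 2 of the 8 fits) rose. Fabp5, a fatty acid carrier, fell by 0.45 in both of its probe sets, whose values were near identical and which each passed in 1 of the 8 fits. Pik3ip1, an inhibitor of PI3 kinase (0.42), Sesn1, a sestrin that restrains mTORC1 (0.42), and Tsc1 of the tuberous sclerosis complex (0.41) rose. Of these, Pik3ip1 and Tsc1 passed in 3 of the 8 fits and Sesn1 in 2. The pseudokinase Trib1 fell by 0.94 (4 of the 8 fits). Trib1 lost its call after quantile normalization and Abca1 with array medians at 0. Chaperones held 3 rises and 1 fall in 38 probe sets. Pfdn2, a subunit of prefoldin, had the largest rise (0.75 ± 0.18 SE, adjusted p = 0.039, 2 of the 8 fits) and the small heat shock protein Hspb1 fell by 0.76 (1 of the 8 fits).

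The proteasome, translation factor and splicing factor lists were called at shares near the 8.17% over all tested probe sets. The proteasome list held 3 rises in 43 probe sets (6.98%), with Psmc1, an ATPase of the proteasome cap, at 0.36, 0.28, 0.40 and 0.45 in S-MP and -0.12, -0.14, 0.07 and 0.04 in S-EtOH. Its rise of 0.41 passed in all 8 fits. Translation factors gave 4 rises and 1 fall in 56 (8.93%) and splicing factors 4 and 1 in 70 (7.14%). The 257 probe sets of cytosolic ribosomal proteins held 0 calls, against 8.17% over all tested, with a median of 0.01. Their median was 0.22 at 8 h and -0.10 at 12 h, with 47 of the 257 below 0 at 8 h and 198 at 12 h. Olfactory and vomeronasal receptors, which the cord is not known to use, gave 0 calls in 59 and 143 probe sets.

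Genes listed here as glucocorticoid-induced, a list that did not hold Zfp36, did not stand high as a group in S-MP at these times. Of 38 probe sets 3 rose (the sulfotransferase Sult1a1, Sesn1 and the clock repressor Nr1d1) and 3 fell (Lcn2, the GTPase Rhob and Slc2a1). The share called was 15.8%, against 8.17% over all tested, and the median was -0.20. Sult1a1 and Rhob lost their call after quantile normalization. The median was 0.02 at 8 h and -0.39 at 12 h, whereas over 2 to 6 h it was 0.28 with 31 of the 38 above 0. Fkbp5, the co-chaperone that damps receptor signalling, read 1.46 and 0.46 at 8 h and -0.21 and 0.05 at 12 h in S-MP, against 0.22 and 0.39 at 8 h and 0.10 and -0.16 at 12 h in S-EtOH. S-MP 8 h replicate 1 alone stood clear of the S-EtOH arrays. Its difference was 0.30 ± 0.23 (SE, adjusted p = 0.42) and its effect at 2 to 6 h was 1.25. Tsc22d3, or GILZ, came close to the threshold (0.37 ± 0.10 SE, adjusted p = 0.0505), and Zbtb16, a zinc finger repressor, was at -0.06 ± 0.23 (SE, adjusted p = 0.89) with 0.86 over 2 to 6 h. The 27 probe sets of the receptor and of steroid handling held 0 calls.

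Markers of other cells that the segment or its blood could hold are given beside the share of 8.17% called, and 2.22% called lower, over all tested probe sets. Neutrophil markers had 0 rises and 2 falls (Lcn2 and the receptor Trem1, whose call was lost after quantile normalization) in 17 probe sets (11.8%), with list means of -0.26 to -0.00025 in S-MP and -0.03 to 0.06 in S-EtOH. T, B and NK cell markers had 1 fall in 20 (5.0%), the protease Gzmb, with means of -0.12 to -0.05 in S-MP and -0.11 to 0.01 in S-EtOH. Erythrocyte and platelet markers had 0 calls in 10, with means of -0.96 to -0.25 in S-MP and -0.57 to -0.11 in S-EtOH. The globin Hbb-b1 was at -1.14 ± 0.39 (SE, adjusted p = 0.10). The part of blood and leukocyte RNA in the chemokine and interferon values was not tested, and as values are centred no marker can be called absent.

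At 8 h alone 365 probe sets passed (2.42%), 279 higher (1.85%) and 86 lower (0.57%) in S-MP. At 12 h alone 21 passed (0.139%), 2 higher (0.0132%) and 19 lower (0.126%). Of the 365, 330 had the same sign at 12 h, as had 62.3% of all tested probe sets. Those lower at 12 h included Cxcl13, a B cell chemokine (-0.50 at 8 h, -2.56 at 12 h), Cxcl11, Gbp5, Ptx3, Tap1, Ifih1, the complement component C3 (0.51 at 8 h, -1.0 at 12 h), Trim25 and Myd88, and those higher were Kctd4 and the guanylate cyclase subunit Gucy1a2. Both counts changed with single arrays or settings, and where a time kept 1 array of a group, that array was assumed to vary like the other groups. The 8 h count was 2 after quantile normalization and 151 with array medians at 0. It was 23 without S-EtOH 8 h replicate 1, 7 without S-MP 8 h replicate 1, 0 without any other of the 8 h arrays or either S-EtOH 12 h array, and 1190 without either S-MP 12 h array. The 12 h count was 43 without either S-EtOH 8 h array, 5 without either S-MP 8 h array and 0 without any 12 h array. The difference between the times itself passed for 0 probe sets in limma (smallest adjusted p = 0.34), with 1841 at an unadjusted p under 0.05, 14 in the fit over 30 sham arrays and 6 without S-MP 8 h replicate 1. The larger medians of the interferon and reactive astrocyte lists at 12 h, and of the microglia list at 8 h, are thus not shown to differ between the times. The same holds for the medians of opposite sign in the meningeal fibroblast and collagen list and in the cytosolic ribosomal list.

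**Figure D3:**
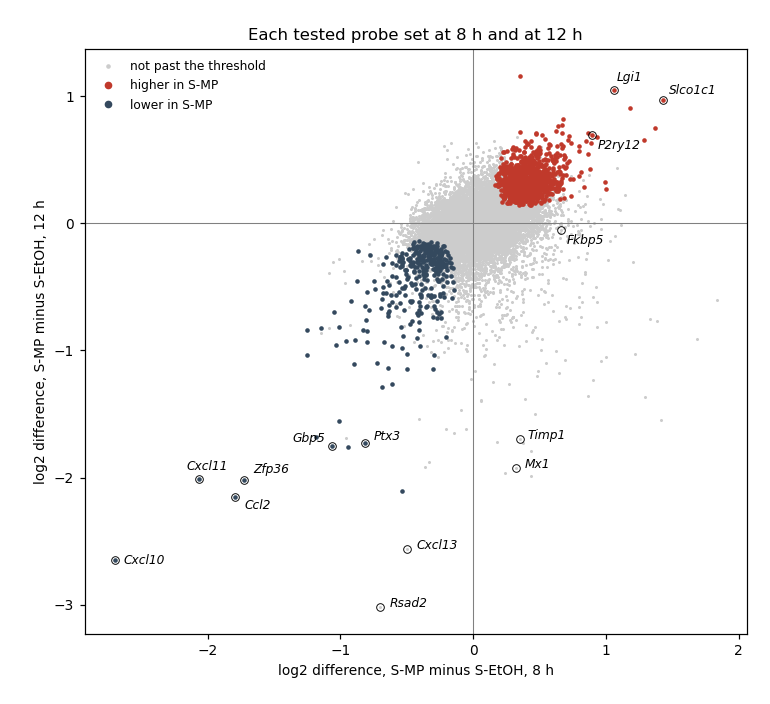
Log2 difference, S-MP minus S-EtOH, at 8 h (x axis) and 12 h (y axis) for all 15097 tested probe sets, with the 898 higher (red) and 335 lower (dark) over both times. Chemokines lie far down the diagonal with Cxcl10 at -2.70 and -2.65, while Rsad2, Mx1 and Timp1 (circled, grey), at -3.02, -1.92 and -1.70 at 12 h and -0.70, 0.32 and 0.35 at 8 h, did not pass over both times.

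Set against sham rats at the other times, Cxcl10 and Zfp36 in S-EtOH stood higher at 8 and 12 h than at 0 h or at 24 h. Cxcl10 in S-EtOH read -1.03 and -0.96 at 0 h, -0.76 and -0.45 at 2 h, -0.26 and 0.21 at 4 h, 1.54 and 0.94 at 6 h, 2.43 and 1.92 at 8 h, 3.15 and 1.77 at 12 h, -0.12 and -0.78 at 24 h and -0.99 and -1.05 at 48 h. In S-MP no Cxcl10 array from 2 to 48 h lay outside -0.73 to 0.11. Zfp36 in S-EtOH likewise stood at -1.61 and -1.62 at 0 h, between -0.46 and 0.83 from 2 to 12 h and at -1.58 and -1.18 at 24 h. Slco1c1 and P2ry12 in S-EtOH stood lower at 8 and 12 h than at 0 h or at 24 h. Slco1c1 in S-EtOH read 0.33 and 0.29 at 0 h and lay between -1.57 and -0.32 from 4 to 12 h, and P2ry12 in S-EtOH read 0.27 and 0.27 at 0 h and between -0.87 and -0.62 at 8 and 12 h. Both genes were also below these 0 h values in S-MP at 4 and 6 h. Slco1c1 in S-MP read -0.67 and -0.68 at 4 h and -0.73 and -0.45 at 6 h. P2ry12 in S-MP read -0.22 and -0.44 at 4 h and -0.38 and -0.64 at 6 h, against 0.11 and 0.12 at 4 h and -0.36 and -0.46 at 6 h in S-EtOH. The S-MP mean at 8 and 12 h was nearer to the S-EtOH 0 h mean than the S-EtOH mean was in all 15 of the largest falls and 11 of the 15 largest rises. Over all probe sets called lower this held in 66.0%, over those called higher in 61.1% and over all tested in 56.0%. S-EtOH arrays enter each of these differences, so the counts are a description only.

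**Figure D4:**
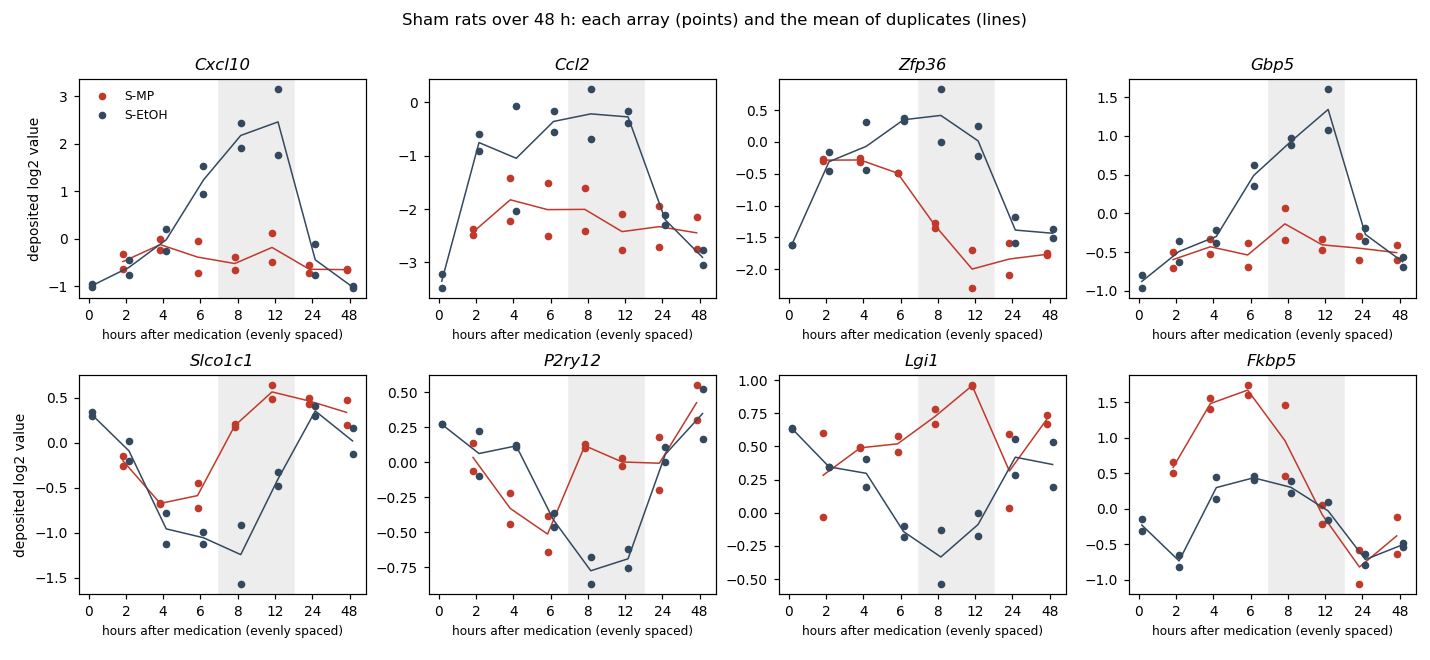
Deposited log2 values (y axis) of 8 genes in S-MP (red) and S-EtOH (dark) rats at each time after medication, with points for arrays, lines through the means of duplicates and grey shading over 8 and 12 h. Cxcl10, Ccl2, Zfp36 and Gbp5 stand high in S-EtOH at 8 and 12 h, Slco1c1, P2ry12 and Lgi1 stand low, and Fkbp5 is apart between the groups mainly from 2 to 6 h.

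The MP effect at 8 and 12 h was then tested against that at 2, 4 and 6 h, in a fit over the 28 sham arrays from 2 to 48 h. It differed for 206 probe sets (1.36%), 138 higher (0.914%) and 68 lower (0.45%) at 8 and 12 h. The split was 70 higher and 82 lower after quantile normalization. Cxcl10 had effects of -2.67 at 8 and 12 h and -0.53 at 2 to 6 h, a difference of -2.14 ± 0.33 (SE, adjusted p = 0.0050). Zfp36 had effects of -1.87 and -0.34, and Ptx3 of -1.27 and 0.01. P2ry12 had effects of 0.79 at 8 and 12 h and -0.19 at 2 to 6 h (difference 0.98 ± 0.13 SE, adjusted p = 0.0027) and Slco1c1 of 1.20 and 0.21 (adjusted p = 0.0051). Rasgrp3, an activator of Ras, and Ccng2, a cyclin of growth arrest, were also more positive at the later times. Ccl2, with effects of -1.97 and -1.37, did not differ past the threshold (adjusted p = 0.54). The count was 647 without S-MP 2 h replicate 2 and 403 without S-MP 12 h replicate 2, and 48 without S-MP 12 h replicate 1. It lay between 90 and 125 without S-MP 2 h replicate 1, either S-MP 4 h array, S-MP 6 h replicate 1, S-MP 8 h replicate 1 or either S-EtOH 24 h array, and between 63 and 88 without any S-EtOH array at 2, 4, 6 or 12 h or S-EtOH 8 h replicate 2.

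Against 24 and 48 h the effect differed for 289 probe sets (1.91%), 178 higher (1.18%) and 111 lower (0.735%) at 8 and 12 h, with 78 and 158 after quantile normalization and 134 and 157 with array medians at 0. Cxcl10, Ccl2, Cxcl11, Ccl7 and Csf2rb were the most negative of those past the threshold, with effects at 24 and 48 h of 0.08, 0.17, -0.10, 0.06 and 0.13. Olfml3, Slco1c1, Lgi1, the selectin ligand Selplg and the ciliary transport gene Ift70b were the most positive, with effects at 24 and 48 h of 0.00, 0.21, 0.12, -0.25 and -0.20. Ndufb3, Atp5mc2 and Psmc1 are given side by side, at 0.49, -0.72 and 0.35 over 2 to 6 h, 0.75, -0.62 and 0.41 over 8 and 12 h and 0.49, -0.65 and 0.36 over 24 and 48 h. These comparisons share the arrays at 8 and 12 h with the main comparison. This count was 562 without either S-MP 2 h array, 526 without S-MP 8 h replicate 2 and 805 without S-MP 12 h replicate 2, and 46 without S-MP 8 h replicate 1, 80 without S-MP 12 h replicate 1 and 35 without S-MP 48 h replicate 2. It was 182 without either S-EtOH 6 h array, 127 without S-EtOH 8 h replicate 2, 92 and 76 without replicates 1 and 2 of S-EtOH at 12 h, 84 and 38 without those at 24 h and 137 and 61 without those at 48 h.

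The same medication and times in injured rats, with a contusion of the cord, gave other effects for part of the probe sets. The list of cytokines, chemokines and mediators had a median effect of -0.50 in sham and -0.50 in injured rats. Medians in sham and injured rats were -0.47 and -0.32 for immediate early factors, -0.51 and 0.06 for reactive astrocyte genes and 0.30 and -0.31 for microglia markers. Differences between these medians were not tested. The sham effect minus the injured effect passed for 1148 probe sets (7.6%), 793 higher (5.25%) and 355 lower (2.35%) in sham. The split was 821 and 798 after quantile normalization and 628 and 429 with array medians at 0. The count was 673 and 732 without replicates 1 and 2 of S-MP at 8 h, 608 without S-MP 12 h replicate 1, 751 and 612 without replicates 1 and 2 of S-EtOH at 8 h and 471 and 515 without those at 12 h. It was 475 without SCI-MP 8 h replicate 2, 713 and 616 without replicates 1 and 2 of SCI-MP at 12 h and 2045 without SCI-EtOH 8 h replicate 1. Cxcl10 averaged -0.36 ± 0.33 in S-MP, 2.32 ± 0.62 in S-EtOH, 2.76 in SCI-MP and 1.34 in SCI-EtOH (SD where given, n = 4 each). The effect was a fall in sham and a value of 1.42 in injured cord, a difference of -4.09 ± 0.66 (SE, adjusted p = 0.0066). The SCI-EtOH duplicates at 8 h were far apart for Cxcl10, at 2.91 and 0.42. Cxcl11 (-2.95 ± 0.26 SE, adjusted p = 6.7e-04), Lcn2 (-2.36), the acute-phase inhibitor Serpina3n (-1.92) and Cxcl13 (-1.85) followed in the same direction.

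Il1b, Nos2, Slc16a3 and G0s2 had a more negative MP effect in injured cord. Il1b averaged -0.67 in S-MP, -0.21 in S-EtOH, 0.65 in SCI-MP and 2.84 in SCI-EtOH, so that the effect was -0.46 in sham and -2.20 in injured rats, a difference of 1.74 ± 0.14 (SE, adjusted p = 4.3e-04). Nos2 had effects of -0.51 in sham and -2.17 in injured rats, the lactate exporter Slc16a3 of -0.41 and -2.05, and G0s2, an inhibitor of fat breakdown, of -0.20 and -1.79. Slco1c1 had effects of 1.20 in sham and -0.74 in injured rats (difference 1.94 ± 0.43 SE, adjusted p = 0.022), and P2ry12 of 0.79 and -0.48 (difference 1.28 ± 0.30 SE, adjusted p = 0.028). The SCI-EtOH duplicates at 8 h lay far apart, at -0.98 and 0.76 for Slco1c1 and -0.51 and 0.69 for P2ry12. The SCI-MP duplicates at 8 h read -0.98 and -1.08 for Slco1c1 and -0.44 and -0.49 for P2ry12. Both injured effects thus rest in part on SCI-EtOH 8 h replicate 2. Zfp36 had effects of -1.87 in sham and -0.11 in injured rats (adjusted p = 0.013), the more negative in sham. Ccl3, Atf3 and Prex2, the last a regulator of Rac that rose by 0.81 in S-MP, had injured effects of -0.92, -0.87 and 1.07 beside sham effects of -1.15, -0.87 and 0.81.

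**Figure D5:**
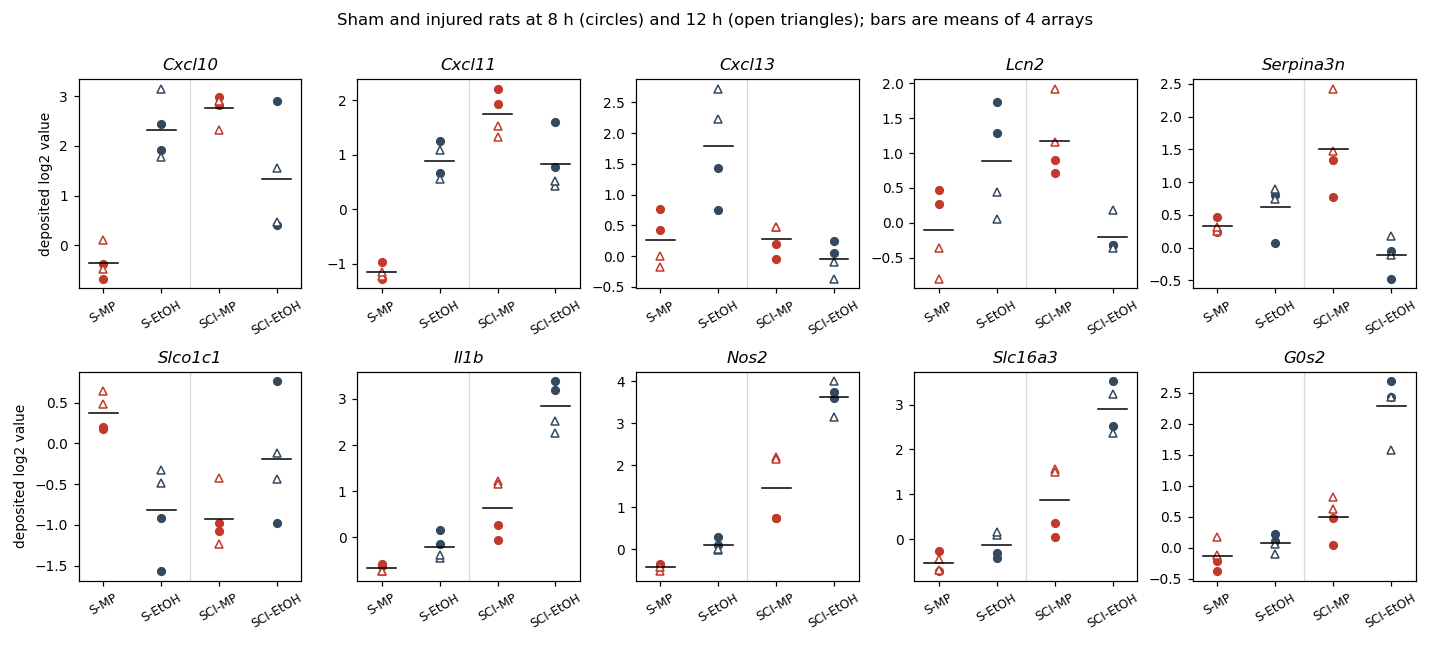
Deposited log2 values at 8 h (circles) and 12 h (open triangles) of 10 genes in S-MP, S-EtOH, SCI-MP and SCI-EtOH rats, 4 arrays per group, with bars for means. For Cxcl10 and Cxcl11 the S-MP arrays stand lowest, and for Il1b, Nos2, Slc16a3 and G0s2 the SCI-EtOH arrays stand highest.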

How the data were processed

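Each of the 60 rats gave 1 Rat Gene 1.0 ST array of spinal cord RNA, and the sample labels gave its group and time. The authors used RMA to summarize probes, then normalized in GeneSpring GX (by chip, then by gene), and deposited log2 values. No source used here names their centring reference. Without brightness over background, dim probe sets could not be filtered, and precision is limited by the number of arrays.

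Names of probe sets came from the platform annotation, with 15097 of 27342 holding exactly 1 symbol (14324 genes) and symbols updated through the gene ID for 15067. 323 probe sets with several symbols and 11922 with none were left out of the tests.

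limma 3.58.1 in R 4.3.3 fitted medication with time as a covariate on the 8 arrays, with moderated variances and Benjamini-Hochberg adjustment over all tested probe sets at 0.05. Effects at single times and differences between times or between sham and injured rats were contrasts of 1 mean per group and time. Scripts were tested on simulated data with known differences. Promoters were read from RefSeq (GRCr8) with Python 3.11.15.

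Genes were named by rule: the 15 with the largest rise and the 15 with the largest fall among called probe sets whose groups did not overlap at either time, the 3 largest changes in each of 50 lists and the 5 largest differences each way in other comparisons. Some list members were named after their values were seen. The members and lists were chosen with earlier results of these data known. Alternatives were quantile normalization, medians set to 0, array weights, robust variances, no moderation, a noise filter, fits over more arrays, the replicate number as a block, gene means, all probe sets, other thresholds, the methods' analysis of variance with Tukey's test and each array left out.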

Additional observations from a re-analysis of the deposited data

Results flagged for a closer look

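The MP effect at 8 and 12 h differed from that at 2 to 6 h, by a test of the difference, for Slco1c1 (0.99), P2ry12 (0.98), Rasgrp3 (0.87), Ccng2 (0.80) and Lgi1 (0.79) upwards. It differed downwards for Cxcl10 (-2.14), Cxcl11 (-1.62), Zfp36 (-1.53), Cxcl13 (-1.49) and Ptx3 (-1.28), all in log2 units. Against 24 and 48 h it differed for Olfml3 (1.06), Slco1c1 (0.99), Lgi1 (0.93), Selplg (0.81) and Ift70b (0.81), and for Cxcl10 (-2.76), Ccl2 (-2.14), Cxcl11 (-1.94), Ccl7 (-1.49) and Csf2rb (-1.48). The sham effect minus the injured effect passed for Slco1c1 (1.94), Il1b (1.74), Nos2 (1.66), Slc16a3 (1.64) and G0s2 (1.59), and for Cxcl10 (-4.09), Cxcl11 (-2.95), Lcn2 (-2.36), Serpina3n (-1.92) and Cxcl13 (-1.85).

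Of 312 groups of 4 arrays over the 156 named probe sets, 12 held an array far from the other 3, with a gap over the range above Dixon's critical value, where chance gives about 1 in 20 groups. In S-MP these were Tmem119 (0.937, lowest in 8 h replicate 1), Prpf19 (0.842, highest in 8 h replicate 1), Oasl (0.865, highest in 8 h replicate 2) and Jun (0.862, lowest in 12 h replicate 1). In S-EtOH the array was 8 h replicate 2 for Tsc1 (0.981), Ebp (0.895), Scn2a (0.891) and Gria4 (0.878), all lowest there, and for Socs3 (0.863), highest there. It was 8 h replicate 1 for Pfdn2 (0.957, highest) and Eif3h (0.836, lowest), and 12 h replicate 1 for Glra2 (0.918, highest).

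Of 12245 probe sets with no gene symbol or several, which entered no comparison above, 823 (6.72%) passed in a fit over all probe sets, 365 higher and 458 lower in S-MP.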

How the results depend on the processing

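The count of 1233 calls was 3236 in a fit over 30 sham arrays, 745 over 60 arrays, 2275 with array weights, 116 without moderated variance (3472 at an unadjusted p under 0.05), 2030 over all probe sets, 14 at a threshold of 0.01 and 188 with a log2 difference of at least 0.5 as well. Quantile normalization, medians set to 0, robust variances and gene means kept it within 1.5 times. The noise filter removed none of the 15097 tested probe sets, so it could not change the count. At 8 h alone (365) the count was 2 after quantile normalization, 151 with medians at 0, 2758 over 30 sham arrays and 182 by the methods' analysis of variance with Tukey's test. At 12 h alone (21) it was 706 over 30 sham arrays and 421 by that analysis, and the difference between times was 14 over 30 sham arrays. Leaving out 1 array gave 89 to 2338 calls over both times, 0 to 1190 at 8 h, 0 to 43 at 12 h, 0 to 6 between the times, 48 to 647 against 2 to 6 h, 35 to 805 against 24 and 48 h and 471 to 2045 against injured rats, where leaving out arrays at other times and injured arrays was chosen after seeing the data. The replicate number as a block gave 226 calls over both times, 0 at 8 h, 1 at 12 h, 27 against 2 to 6 h, 10 against 24 and 48 h, 0 between the times and 1081 against injured rats, but deviations of same-numbered arrays correlated at -0.015 at 8 h and -0.0997 at 12 h, so the numbers were not taken to pair the rats. Zbtb16, which did not pass, was at -0.06, at 0.020 after quantile normalization and between -0.293 (without S-EtOH 8 h replicate 1) and 0.096 (without S-EtOH 8 h replicate 2) with 1 array left out, with 0.087 without S-EtOH 12 h replicate 1 and 0.00699 without S-MP 8 h replicate 2. Causes were not tested.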
